A study of Mus musculus with 8 samples.

Results

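Trp53cor1, Pvt1, Neat1, Malat1, Tug1 and Kcnq1ot1 are long non-coding RNAs that have been tied to p53 or to nuclear bodies, and their levels were compared in the embryonic mouse ventricle. They were taken by symbol on primary chromosomes, which gave 6 rows of the 52778 in the deposited expression table. The libraries came from ventricular hearts at embryonic day 11.5. In 4 cKO libraries floxed Rps19bp1 (Rps19bp1 fl/fl) was deleted by Xmlc2-Cre, a driver that the series text calls specific to cardiomyocytes, so the other cells of the ventricle keep the gene. The 4 remaining libraries are labelled Control, and their alleles are not given in the sources used here. The comparison asks how these RNAs differ when cardiomyocytes lack Rps19bp1, whose product is a nucleolar partner of ribosomal protein S19 and of the deacetylase Sirt1.

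Long non-coding RNAs are transcribed and often spliced like messenger RNAs but do not serve as templates for a known protein. Trp53cor1, also called lincRNA-p21, is induced by p53 and lies beside Cdkn1a, the gene of the cell cycle inhibitor p21. Pvt1 lies beside the growth gene Myc and has also been described as a p53 target. Neat1 is the scaffold RNA of paraspeckles and Malat1 an abundant RNA of nuclear speckles, and both bodies hold splicing and RNA-binding proteins. Tug1 is a widely expressed RNA linked to p53 and to polycomb repression. Kcnq1ot1 is an imprinted antisense RNA transcribed from the paternal allele inside Kcnq1, and it silences neighbouring genes such as Cdkn1c in cis.

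Values are TPM, reads divided by transcript length and scaled to a fixed total per library. Levels can thus be compared between genes as far as the library preparation captured them alike. The read depth of a value cannot be known. The targeted gene stood at 34.7 to 44.2 TPM in control and at 11.8 to 19.2 TPM in cKO. The labels contradict each other: the genotype entry reads wild type throughout, the extraction text speaks of cortical neurons and depletion of ribosomal RNA, and the series text of ventricles and a stranded mRNA kit. The 16 cardiomyocyte markers summed to between 57468 and 62744 TPM, against 8.36 to 18.5 TPM for 15 neuronal markers, of which Gad2, Neurod6 and Neurod2 stayed under 0.1 TPM in every library. Epicardial and mesenchymal markers moved with the groups. The summed level of 10 epicardial markers was 386 to 448 TPM in control and 454 to 561 TPM in cKO, and that of 10 mesenchymal markers 1825 to 2166 and 2300 to 2642 TPM (exact two-sided permutation p = 0.0286 for each, the smallest that 4 against 4 libraries allow). The 12 endocardial and endothelial markers summed to 912 to 976 TPM in control and 966 to 1091 TPM in cKO, a narrow overlap (exact two-sided permutation p = 0.0571). Erythroid markers spanned 2328 to 8428 TPM in control and 2106 to 4476 TPM in cKO. The sums of cardiomyocyte, macrophage and neuronal markers overlapped between groups as well. The part of these differences in the results that follow was not tested. In bulk tissue, fewer cells of a type and less RNA per cell cannot be told apart.

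Trp53cor1 and Pvt1 rose in cKO, and Neat1, Malat1, Tug1 and Kcnq1ot1 did not pass the test. Levels were compared by limma on log2(TPM + 1), with p-values adjusted by the Benjamini-Hochberg method over 15541 rows with a mean of at least 1 TPM. All 6 RNAs were above that mean. A row was called at an adjusted p under 0.05, and 2 of the 6 were called, both higher. Over all tested rows 6.40% were called, 2.16% as higher and 4.23% as lower, and groups did not overlap in 15.6%, against 2 of the 6 RNAs. The number of called rows fell from 994 to 400 without cKO replicate 1, to 419 without cKO replicate 3, and to 390, 451, 421 and 588 without control replicates 1 to 4. Among 915 tested rows that RefSeq annotates as long non-coding RNA, 4.26% were called, 3.17% as higher and 1.09% as lower, and groups did not overlap in 10.3%.

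**Figure D1:**
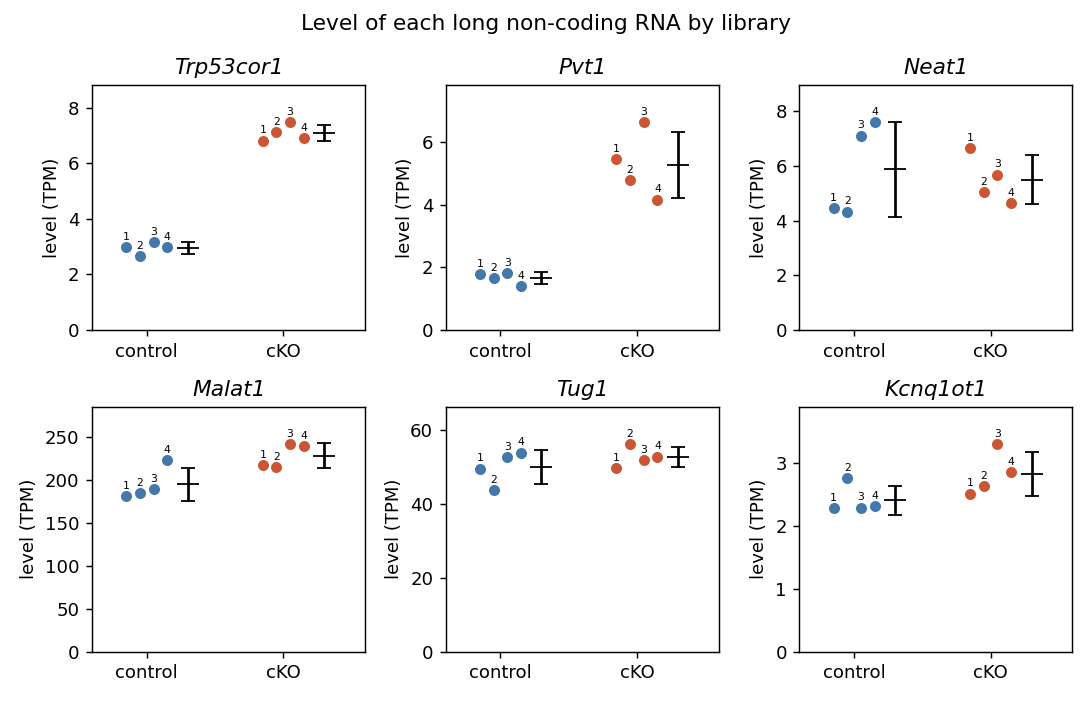
Level in TPM (vertical axis, starting at 0) of each of the 6 RNAs in 4 control (blue) and 4 cKO (orange) libraries, numbered by replicate; the bar beside each group is the mean ± SD. The groups are apart for Trp53cor1 (2.66 to 3.15 against 6.81 to 7.47 TPM) and Pvt1 (1.40 to 1.81 against 4.17 to 6.63 TPM) and overlap for the other 4.

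Trp53cor1 (NCBI gene 100504267) lies on chromosome 17 at 29057474 to 29079126, minus strand, on GRCm38. Control libraries 1 to 4 held 2.97, 2.66, 3.15 and 2.99 TPM. The cKO libraries 1 to 4 held 6.81, 7.13, 7.47 and 6.90 TPM. The groups were far apart, and the 8 values formed 2 tight clusters. The mean went from 2.94 ± 0.203 to 7.08 ± 0.296 TPM (SD, n = 4), 2.40 times the control level. On the log2(TPM + 1) scale the change was 1.04 (SE 0.0747, limma adjusted p = 9.02e-05, exact permutation p = 0.0286). Among the 915 long non-coding rows this was the smallest p and the 6th largest change. The symbol stands on 2 rows, of which that of an alternate scaffold is listed at 0.

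The start of a Trp53cor1 transcript is shown because p53, as a tetramer, binds 2 copies of a 10-base motif. The first 300 bases of 1 GENCODE transcript of each RNA, and of 2 for Pvt1, were searched for the p53 consensus. Its 20 bases have no spacer and read the same on both strands. The first 200 bases of the GENCODE M21 transcript Trp53cor1-201 follow, with the 20 matching bases (transcript bases 122 to 141, chr17:29079039-29079058, minus strand, GRCm38) in capitals. Below it stands a 100-base stretch of the RefSeq promoter of Cdkn1a (GRCm38.p6, plus strand), with its own best match (chr17:29090928-29090947) in capitals.
Trp53cor1 5′ end: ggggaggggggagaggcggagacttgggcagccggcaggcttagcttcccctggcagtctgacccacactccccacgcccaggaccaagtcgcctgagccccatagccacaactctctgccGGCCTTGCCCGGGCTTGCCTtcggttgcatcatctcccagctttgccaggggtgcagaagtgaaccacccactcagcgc
Cdkn1a promoter: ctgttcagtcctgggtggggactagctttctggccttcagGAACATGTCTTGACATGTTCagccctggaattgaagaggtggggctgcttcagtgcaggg
Each match has 1 mismatch to the consensus, and the matches lie 11869 bp apart. Trp53cor1-201 begins upstream of the 5′ end of the Trp53cor1 row (29079126), so the first printed bases lie outside that row. A match with at most 1 mismatch occurs in the first 300 bases of 0.0656% of 131058 GENCODE transcripts and of 0.104% of the 28801 long non-coding ones. It occurs in 0.0883% of 32851 RefSeq promoters of 300 bases. In the same window the best match had 5 mismatches in Pvt1-208, Pvt1-210 and Neat1-201, 4 in Malat1-201 and Kcnq1ot1-201 and 6 in Tug1-202, and the median over all transcripts was 5. The RefSeq promoter table holds 3 of the 6 RNAs, with 3 mismatches in Kcnq1ot1, 4 in Tug1 and 5 in Malat1. The sequence upstream of Trp53cor1, Pvt1 and Neat1 was not searched. The windows were taken from spliced transcripts, so introns were not searched either, and both Pvt1 windows run on into the second exon. A best match of Tug1-202 lies at 3647010 to 3647029, away from the 5′ end of the Tug1 row at 3648814. That window therefore starts inside the row or crosses an intron. GENCODE M21 lists 7 transcripts of Trp53cor1, 10 of Pvt1, 8 of Tug1 and 4 each of Neat1 and Malat1. Those not named here were not searched. The counts for Pvt1 and Neat1 therefore cannot say whether a closer match lies outside the window. These matches are letters in a window and no measure of binding.

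Cdkn1a, which lies 11852 bp from the 5′ end of the Trp53cor1 row and is transcribed away from it, rose further than its neighbour. In control, libraries 1 to 4 held 29.1, 24.9, 33.1 and 32.4 TPM of Cdkn1a. The cKO libraries held 190, 171, 198 and 137 TPM, all far above control. On the log2 scale this was a change of 2.50 (SE 0.120, limma adjusted p = 6.53e-06), and the mean was 5.83 times the control level. Relative to Cdkn1a, Trp53cor1 was lower in every cKO library than in any control. It stood at 10.2%, 10.7%, 9.51% and 9.24% of the Cdkn1a level in control libraries 1 to 4. The corresponding shares in cKO were 3.59%, 4.17%, 3.77% and 5.02%. The groups did not overlap, with means of 9.92% ± 0.669 and 4.14% ± 0.637 (SD over n = 4, exact permutation p = 0.0286, adjusted p = 0.0429 over the 6 ratios compared, which were chosen after the values were seen).

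**Figure D2:**
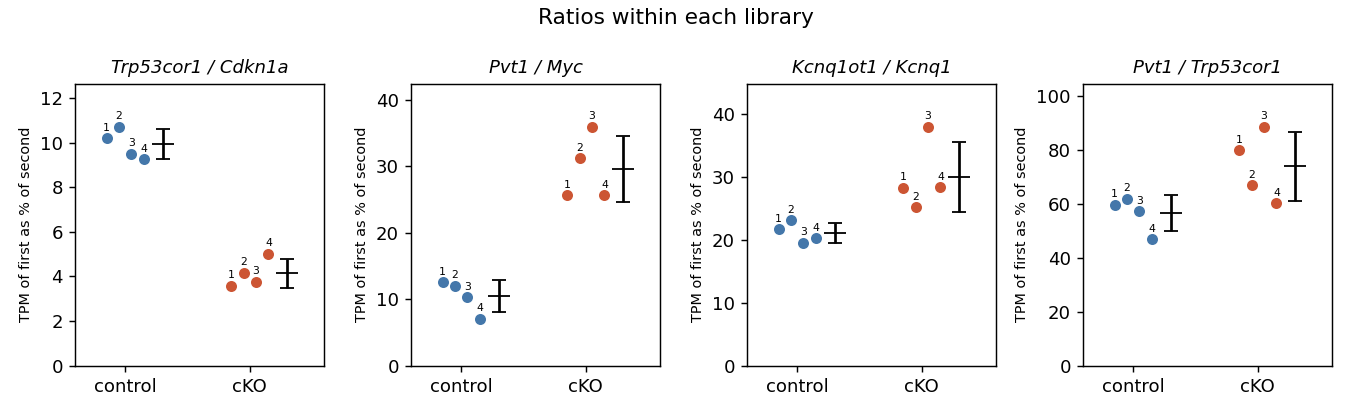
Level of one RNA as a percentage of another within each library (vertical axes, starting at 0) for 4 control (blue) and 4 cKO (orange) libraries, with the mean ± SD beside each group. Trp53cor1 fell relative to Cdkn1a (9.92% to 4.14%), Pvt1 rose relative to Myc (10.5% to 29.6%), Kcnq1ot1 rose relative to Kcnq1 (21.1% to 29.9%), and the groups overlap for Pvt1 relative to Trp53cor1.

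Apart from Cdkn1a, no tested gene within 200 kb of Trp53cor1 was called higher. Of 8 tested rows within 200 kb, 3 were called: Cdkn1a higher, and Cpne5 and Ppil1 lower. That is 37.5%, against 6.40% of all tested rows. Ppil1, a peptidyl-prolyl isomerase of the spliceosome, fell from 101 ± 2.82 to 75.3 ± 7.52 TPM (SD over n = 4, log2 change -0.42, limma adjusted p = 0.00964). Cpne5, a calcium-dependent phospholipid-binding protein, fell from 9.76 ± 0.674 to 6.90 ± 0.932 TPM (SD over n = 4, log2 change -0.45, limma adjusted p = 0.0237). The call of Cpne5 was lost under 6 of 18 alternative settings, and that of Ppil1 held under all 18. Srsf3, a splicing factor 14101 bp beyond the 3′ end of Trp53cor1, differed by -0.08 on the log2 scale (limma adjusted p = 0.580), and the kinase gene Stk38 by 0.04. The row Gm41556 overlaps the 3′ part of Trp53cor1 by 2080 bp on the opposite strand. It stood at 0.0779 to 0.216 TPM in control and at 0.325 to 0.911 TPM in cKO, too low to be tested. If counting ignored strand, reads of the overlap cannot be assigned to 1 of them.

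Pvt1 (NCBI gene 19296) spans 222230 bp of chromosome 15, from 62037986 to 62260215 on the plus strand. The controls 1 to 4 held 1.78, 1.65, 1.81 and 1.40 TPM. The cKO libraries 1 to 4 held 5.46, 4.78, 6.63 and 4.17 TPM. Every cKO library exceeded every control, and the spread among cKO libraries was wider than for Trp53cor1, with a coefficient of variation of 20.1% against 4.18%. The mean went from 1.66 ± 0.184 to 5.26 ± 1.06 TPM (SD, n = 4), 3.17 times the control level. The log2 change was 1.22 (SE 0.125, limma adjusted p = 0.00103, exact permutation p = 0.0286), the third largest among the 915 long non-coding rows. Pvt1 was the least abundant of the 6 RNAs in control. Relative to Trp53cor1 it stood at 56.5% ± 6.70 in control and at 74.1% ± 12.8 in cKO (SD over n = 4, exact permutation p = 0.0571, adjusted p = 0.0686 over 6 ratios).

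GENCODE M21 lists 10 transcripts of Pvt1 with more than 1 start, and the first exons of Pvt1-208 and Pvt1-210 are shown because the table cannot say which start carried the rise. The exon of Pvt1-208 has 216 bases (chr15:62037986-62038201) and that of Pvt1-210 has 191 bases (chr15:62039257-62039447), starting 1271 bp further downstream. Both are joined to the same second exon, whose first 20 bases (chr15:62107148-62107167, plus strand, GRCm38) are in capitals.
Pvt1-208: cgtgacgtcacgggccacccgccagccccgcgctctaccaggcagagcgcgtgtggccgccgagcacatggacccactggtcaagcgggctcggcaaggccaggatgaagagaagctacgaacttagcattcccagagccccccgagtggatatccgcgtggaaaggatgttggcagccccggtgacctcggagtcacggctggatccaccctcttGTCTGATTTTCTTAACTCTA
Pvt1-210: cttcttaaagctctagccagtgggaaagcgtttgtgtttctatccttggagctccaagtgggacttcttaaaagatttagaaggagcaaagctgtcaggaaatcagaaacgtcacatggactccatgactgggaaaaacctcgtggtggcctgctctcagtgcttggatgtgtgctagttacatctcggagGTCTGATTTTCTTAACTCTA
The deposited row gives 1 value for the whole gene, so the starts could not be compared.

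Myc, the 1 tested gene within 200 kb of Pvt1, lies 47624 bp before its start and did not pass the test. In controls 1 to 4 the Myc level was 14.2, 13.7, 17.6 and 19.9 TPM. The cKO libraries held 21.3, 15.3, 18.5 and 16.2 TPM, which overlaps the control range. On the log2 scale the difference was 0.12 (SE 0.129, limma adjusted p = 0.615). Pvt1 rose from 10.5% ± 2.47 to 29.6% ± 4.97 of the Myc level (SD, n = 4), with no overlap between groups (exact permutation p = 0.0286, adjusted p = 0.0429 over 6 ratios). This ratio was chosen after the values were seen and repeats the rise of Pvt1, so it is not separate evidence. Of 10 tested genes of the Myc and Max network, 0 were called by limma, with 1 at an unadjusted p under 0.05, and the median change was 0.00. The row Macroh2a3 overlaps Pvt1 by 1911 bp on the opposite strand and stood at 0.407 to 0.794 TPM in control and at 0.408 to 0.622 TPM in cKO.

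Protein-coding p53 targets were also mostly higher in cKO. Of 31 other tested direct p53 targets, 22 were called, all higher, with a median change of 0.71 against -0.02 over all tested rows. The 22 are 71.0% of those tested, against 6.40% called and 2.16% called higher over all tested rows. The list was written with earlier results of these data known, so its direction is not independent evidence. Eda2r, a death receptor gene, rose by a log2 change of 2.38, the stress gene Trp53inp1 by 1.46 and the cyclin gene Ccng1 by 1.27 (limma adjusted p between 3.9e-06 and 7.29e-06). Mdm2, the ubiquitin ligase that degrades p53, rose by 0.24 (limma adjusted p = 0.0154), a call lost under 2 of 18 alternatives. Trp53 itself stood at 79.2 to 96.8 TPM in control and at 93.0 to 99.4 TPM in cKO, with a log2 change of 0.16 (limma adjusted p = 0.145). The changes of Trp53cor1 (1.04) and Pvt1 (1.22) thus lay above the median of the list. Neat1, which the list as written also held, lay below that median at -0.05. All 3 were left out of the 31.

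**Figure D3:**
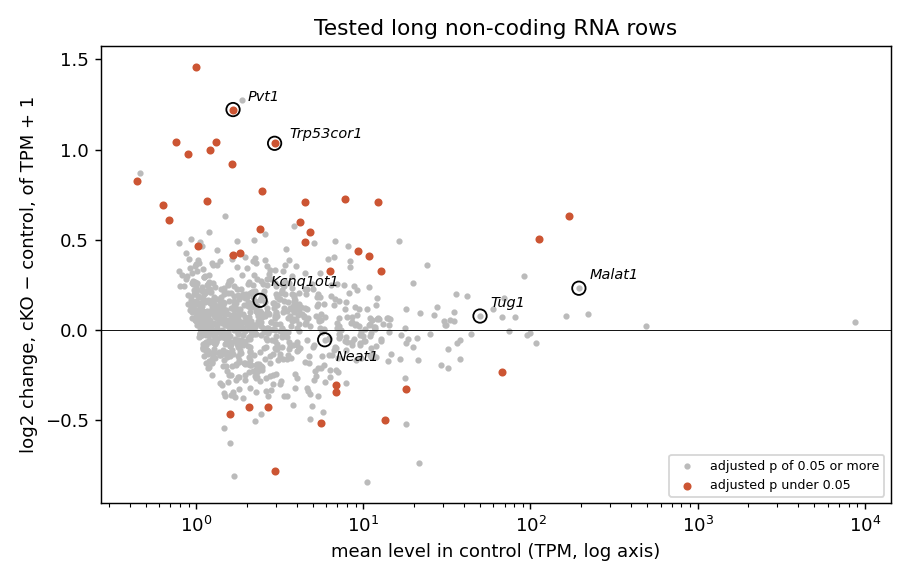
Log2 change of TPM + 1 (vertical axis, cKO minus control) against the mean control level (horizontal axis, log scale) for the tested long non-coding RNA rows; orange points have an adjusted p under 0.05, and circles mark the 6 RNAs. Pvt1 and Trp53cor1 stand at the upper edge at low levels, while Malat1, Tug1, Neat1 and Kcnq1ot1 lie between -0.05 and 0.23.

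Neat1 (NCBI gene 66961; chromosome 19, 5824708 to 5845480, minus strand) did not pass the test and was the most variable of the 6 in control. Control libraries 1 to 4 held 4.45, 4.32, 7.11 and 7.60 TPM. The cKO libraries 1 to 4 held 6.66, 5.04, 5.68 and 4.63 TPM. The control libraries were split, with replicates 1 and 2 below every cKO library and replicates 3 and 4 above every cKO library. The means were 5.87 ± 1.72 and 5.50 ± 0.883 TPM (SD, n = 4), and the log2 change was -0.05 (SE 0.171, limma adjusted p = 0.882, exact permutation p = 0.743). Its sign turned to 0.037 without control replicate 3, to 0.065 without control replicate 4 and to 0.012 without cKO replicate 4. With a coefficient of variation of 29.4% in control, against a median of 16.1% over long non-coding rows, a change of Neat1 within that spread was not detectable here. No other row overlaps it.

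Of 29 tested genes of paraspeckle proteins, which assemble on Neat1, 0 were called higher and 3 lower, with a median change of -0.10. The 3 are 10.3% of the list, against 6.40% called and 4.23% called lower over all tested rows. Hnrnpul1 fell from 161 ± 4.25 to 136 ± 6.56 TPM (SD over n = 4, log2 change -0.24, limma adjusted p = 0.0197). Pspc1, a core paraspeckle protein, fell by a log2 change of 0.23 (limma adjusted p = 0.0280) and Dazap1, an RNA-binding protein, by 0.28 (limma adjusted p = 0.0379). These calls rested on the settings: out of 18 alternatives Hnrnpul1 kept its call under 14, Dazap1 under 7 and Pspc1 under 5, and quantile normalization left 0 of the 3. Hnrnpk, a paraspeckle protein that has also been reported to bind Trp53cor1, stood at 455 ± 8.62 and 427 ± 39.4 TPM (SD over n = 4, log2 change -0.10, limma adjusted p = 0.415).

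Malat1 (NCBI gene 72289; chromosome 19, 5795690 to 5802672, minus strand) was the most abundant of the 6 RNAs, with 73.8% to 77.1% of their summed TPM in every library. In control, libraries 1 to 4 held 182, 185, 189 and 223 TPM. The cKO libraries 1 to 4 held 217, 215, 242 and 240 TPM. Control replicate 4 lay inside the cKO range, and the other 3 controls lay below it. The means were 195 ± 19.3 and 228 ± 14.4 TPM (SD, n = 4), 1.17 times the control level. The log2 change of 0.23 (SE 0.0727) did not pass the test (limma adjusted p = 0.0886, exact permutation p = 0.0857). Without control replicate 4 it was 0.30 and passed (limma adjusted p = 0.0325), and over the other 17 alternatives it did not pass (limma adjusted p from 0.0325 to 0.216 over all 18).

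The 3′ part of Malat1 is shown because it bears on how these libraries can capture the RNA. RNase P cuts the nascent transcript there, which frees a small tRNA-like RNA (mascRNA) and leaves Malat1 with a genome-encoded A-rich end in place of a poly(A) tail. Bases 6622 to 6779 of the GENCODE M21 transcript Malat1-201 follow, with the 58 bases of the separate row Mascrna (chr19:5795924-5795981, minus strand, GRCm38) in capitals.
Malat1-201 3′ part: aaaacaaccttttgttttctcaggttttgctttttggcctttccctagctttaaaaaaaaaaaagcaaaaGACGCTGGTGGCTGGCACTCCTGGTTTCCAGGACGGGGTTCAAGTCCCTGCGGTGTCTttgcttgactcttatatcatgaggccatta
The Mascrna row lies inside Malat1 on the same strand and was at most 0.00215 TPM in any library. How reads of this stretch were assigned between it and Malat1 is not known, so this value is no measure of mascRNA. The longer Neat1 isoform ends in the same way as Malat1. The labels name both a stranded mRNA kit and depletion of ribosomal RNA. Small RNAs that lack such a tail were low, with Rn7sk at 1.77 to 7.94 TPM, Rpph1 at 1.41 to 8.31 TPM and Rmrp at 0.387 to 6.60 TPM, and each was highest in control replicate 4. Control replicate 4 was also the control with the most Malat1 and Neat1. In cKO the highest library differed between these RNAs. It was replicate 2 for Rn7sk (6.15 TPM), replicate 4 for Rmrp (2.79 TPM) and replicate 3 for Malat1 (242 TPM). For Rpph1 (5.01 TPM) and Neat1 (6.66 TPM) it was replicate 1. The part of library preparation in these levels was not tested.

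Of 39 tested genes of nuclear speckle proteins, 0 were called higher and 2 lower, with a median change of -0.08. That is 5.13% of the list, against 6.40% called over all tested rows. Alyref, an mRNA export adaptor, fell from 188 ± 31.1 to 116 ± 22.6 TPM (SD over n = 4, log2 change -0.69, limma adjusted p = 0.0259), although its groups overlapped. The splicing factor U2af1 fell by a log2 change of 0.20 (limma adjusted p = 0.0331). Alyref kept its call under 10 of 18 alternatives and U2af1 under 5. Among 24 tested genes of 3′ processing, m6A and nuclear decay, 1 was called: Exosc10, a nuclease of the nuclear exosome, fell by a log2 change of 0.19 (limma adjusted p = 0.0358) and kept the call under 5 of 18 alternatives. This 1 gene is 4.17% of its list, also near the share over all tested rows.

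Neat1 and Malat1 lie 22035 bp apart on the same strand, and their levels were unequal in both groups. The TPM of Malat1 was 34.9 ± 8.10 times that of Neat1 in control and 42.4 ± 7.84 times in cKO (SD over n = 4, exact permutation p = 0.229). The labels do not settle the library kit, so this ratio may differ from that of the RNAs in the cell. Among 19 and 20 tested rows within 200 kb of them, which are largely shared, Pola2 and Rnaseh2c were called, both lower. The share called was 5.26% around Neat1 and 10% around Malat1, against 6.40% of all tested rows. Pola2, a subunit of the DNA polymerase alpha and primase complex, fell from 43.7 ± 1.17 to 34.5 ± 1.42 TPM (SD over n = 4, log2 change -0.34, limma adjusted p = 0.00540) and kept its call under all 18 alternatives. Rnaseh2c, a subunit of ribonuclease H2, differed by -0.23 on the log2 scale (limma adjusted p = 0.0496) and kept its call under 4 of 18. Frmd8, the nearest gene to Neat1 at 5493 bp, had a log2 difference of -0.12 and did not pass (limma adjusted p = 0.262).

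Tug1 (NCBI gene 544752; chromosome 11, 3639785 to 3648814, minus strand) was the second most abundant of the 6 and had the smallest relative difference in means, 1.05 times the control level. The controls 1 to 4 held 49.5, 43.6, 52.7 and 53.8 TPM. The cKO libraries 1 to 4 held 49.7, 56.1, 51.7 and 52.7 TPM. The ranges overlapped, with control replicates 1 and 2 below every cKO library, control replicate 4 above 3 of the cKO libraries and cKO replicate 2 highest. The means were 49.9 ± 4.59 and 52.6 ± 2.68 TPM (SD, n = 4), with a log2 difference of 0.08 (SE 0.0698, limma adjusted p = 0.550, exact permutation p = 0.400). Leaving out single libraries moved this change between 0.02 and 0.11. Morc2a, a chromatin-silencing ATPase gene that lies 374 bp from the 5′ end of Tug1 on the other strand, stood at 36.3 to 40.4 TPM in control and at 35.6 to 37.9 TPM in cKO (log2 change -0.06, limma adjusted p = 0.515). Of 6 tested rows within 200 kb 1 was called, which is 16.7% against 6.40% of all tested rows. This was Inpp5j, an inositol phosphatase gene. It differed by -0.30 on the log2 scale (limma adjusted p = 0.0461) and kept its call under 5 of 18 alternatives.

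Chromatin factors that the literature ties to Tug1, Kcnq1ot1 and related RNAs were read from a list of polycomb, H3K9 and DNA methylation genes that also holds the RNA-binding proteins Hnrnpk and Hnrnpu. Of 23 tested, 0 were called higher and 3 lower, with a median change of -0.09. The 3 are 13.0% of the list, against 6.40% called and 4.23% called lower over all tested rows. Cbx8, a polycomb reader protein, fell from 7.48 ± 0.379 to 5.28 ± 0.274 TPM (SD over n = 4, log2 change -0.43, limma adjusted p = 0.00887). Uhrf1, which guides maintenance of DNA methylation, fell by a log2 change of 0.47 (limma adjusted p = 0.0179), and Hnrnpu, a nuclear matrix RNA-binding protein, by 0.19 (limma adjusted p = 0.0461). Cbx8 kept its call under 18 of 18 alternatives, Uhrf1 under 15 and Hnrnpu under 5.

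Kcnq1ot1 (NCBI gene 63830; chromosome 7, 143213111 to 143296547, minus strand) lies with all its 83437 bp inside Kcnq1, a potassium channel gene on the plus strand. In controls 1 to 4 the levels were 2.28, 2.76, 2.29 and 2.32 TPM. The cKO libraries 1 to 4 held 2.51, 2.64, 3.30 and 2.86 TPM. Control replicate 2 stood apart from the other 3 controls and lay inside the cKO range. The means were 2.41 ± 0.231 and 2.83 ± 0.347 TPM (SD, n = 4), with a log2 difference of 0.16 (SE 0.0997, limma adjusted p = 0.357, exact permutation p = 0.0857). If counting ignored strand, unspliced reads of Kcnq1 would fall into this row, and the row cannot be told from the introns of its host.

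Kcnq1, the host gene, had lower values in cKO. Control libraries 1 to 4 held 10.53, 11.9, 11.7 and 11.5 TPM of Kcnq1. The cKO libraries held 8.89, 10.47, 8.70 and 10.1 TPM. Every cKO value lay below the lowest control (exact permutation p = 0.0286), but the log2 change of -0.24 did not pass over all rows (limma adjusted p = 0.0890). Kcnq1ot1 rose from 21.1% ± 1.57 to 29.9% ± 5.54 of the Kcnq1 level (SD over n = 4, exact permutation p = 0.0286, adjusted p = 0.0429 over 6 ratios). Cdkn1c, the inhibitor of cyclin-dependent kinases that Kcnq1ot1 silences on the paternal allele, stood at 1886 to 2424 TPM in control and at 1560 to 2167 TPM in cKO (log2 change -0.24, limma adjusted p = 0.240). Kcnq1ot1 stood at 0.111% ± 0.0122 of the Cdkn1c level in control and at 0.154% ± 0.0175 in cKO (SD over n = 4, exact permutation p = 0.0286, adjusted p = 0.0429 over 6 ratios). Both ratios were chosen after the values were seen. Kcnq1 and Cdkn1c had lower means in cKO, and Kcnq1ot1 itself did not pass the test, so the ratios do not show a rise of Kcnq1ot1 alone.

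Of 12 tested genes of the imprinted domain around Kcnq1ot1, 1 was called higher and 1 lower, with a median change of -0.11. Over all tested rows 2.16% were called higher and 4.23% lower. Cd81, a tetraspanin gene, rose from 560 ± 21.9 to 692 ± 67.3 TPM (SD over n = 4, log2 change 0.30, limma adjusted p = 0.0337) and kept its call under 10 of 18 alternatives. Dhcr7, an enzyme of cholesterol synthesis, fell from 27.6 ± 1.21 to 21.8 ± 1.35 TPM (SD over n = 4, log2 change -0.33, limma adjusted p = 0.0133) and kept it under all 18. The imprinted gene Slc22a18 lay at 1.12 ± 0.400 and 1.49 ± 0.490 TPM (SD, n = 4) and did not pass (limma adjusted p = 0.488), and Phlda2 and Ascl2 were too low to be tested.

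**Figure D4:**
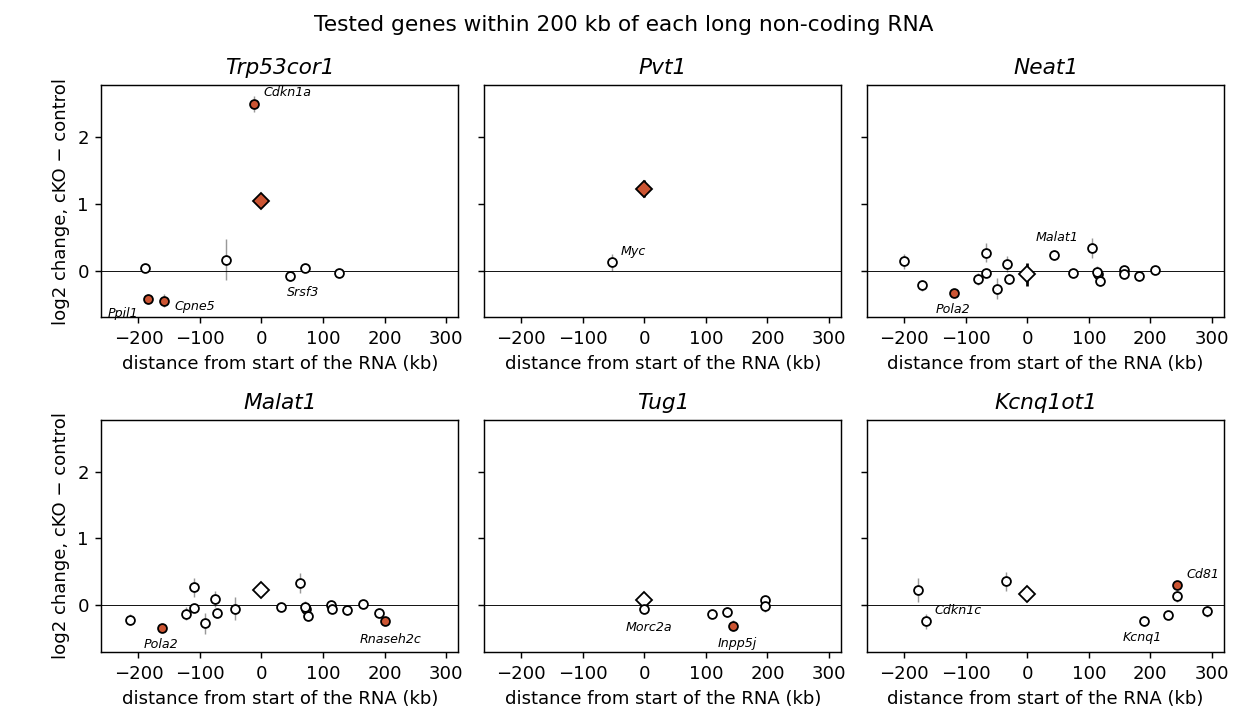
Log2 change (vertical axis, cKO minus control, ± SE) of each tested gene within 200 kb of the 6 RNAs against the distance between transcription starts in kb (horizontal axis, negative upstream of the RNA). Diamonds are the RNAs themselves and filled symbols have an adjusted p under 0.05. Cdkn1a (2.50) stands far above all other neighbours, which lie between -0.45 and 0.36.

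Across all 6 loci, 79 rows other than the 6 RNAs lay within 200 kb and 43 were tested. Of these, 7 were called, 2 higher (Cdkn1a and Cd81) and 5 lower, which is 16.3% against 6.40% of all tested rows. The median change was -0.05. The count of 7 was 3 without cKO replicate 1, control replicate 1 or control replicate 4, and 4 without cKO replicate 2, control replicate 2 or control replicate 3.

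The order of the 6 levels shifted with the 2 that rose. In control it ran Malat1, Tug1, Neat1, Trp53cor1, Kcnq1ot1 and Pvt1, and only the neighbours Trp53cor1 and Kcnq1ot1 overlapped in range. In cKO it ran Malat1, Tug1, Trp53cor1, Neat1, Pvt1 and Kcnq1ot1, and only Neat1 and Pvt1 overlapped. Together the 6 summed to 240 to 292 TPM in control and to 288 to 317 TPM in cKO.

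**Figure D5:**
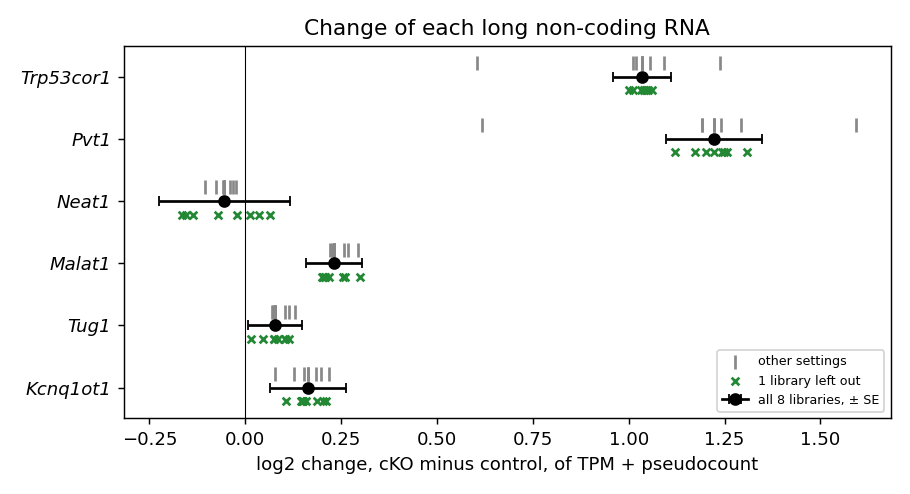
Log2 change of each RNA (horizontal axis, cKO minus control): black points with bars are the fit on all 8 libraries ± SE, grey ticks other settings, green crosses fits with 1 library left out. Trp53cor1 (0.60 to 1.24) and Pvt1 (0.62 to 1.59) stay above 0, with the lowest and highest values set by the pseudocount, while Neat1 lies on both sides of 0.

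Among other non-coding transcripts linked to p53, 7 were tested and 2 called, both higher, while 3.17% of all tested long non-coding rows were called higher. Meg3, a maternally expressed imprinted RNA, rose from 171 ± 22.3 to 265 ± 28.8 TPM (SD over n = 4, log2 change 0.63, limma adjusted p = 0.00853) and kept its call under all 18 alternatives. Mir22hg, the host of miR-22, rose by a log2 change of 0.44 (limma adjusted p = 0.0480) and kept its call under 5 of 18. Norad, which sequesters Pumilio proteins, stood at 108 to 109 TPM in control and at 103 to 104 TPM in cKO, a log2 change of -0.07 with groups that did not overlap but a limma adjusted p of 0.246. The growth arrest RNA Gas5 (log2 change 0.09) and the imprinted H19 (0.04, at 8328 to 9564 TPM) did not pass either (limma adjusted p = 0.270 and 0.769). Mir34b and Mir34c were listed at 0 in all libraries.

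In a wider list of named long non-coding RNAs, which includes the 7 tested above, 30 were tested and 6 called, all higher, with a median change of 0.09. The 6 are 20% of the list, against 3.17% called higher over all tested long non-coding rows. Beside Meg3, its neighbours in the same imprinted cluster rose: Rian from 113 ± 7.15 to 161 ± 10.8 TPM (SD over n = 4, log2 change 0.51, limma adjusted p = 0.00281) and Mirg by a log2 change of 0.41 (limma adjusted p = 0.0194). Rian kept its call under 18 of 18 alternatives and Mirg under 13. Dnm3os, the host of miR-199 and miR-214 expressed in mesenchyme, and Wt1os, the antisense partner of the epicardial gene Wt1, had log2 changes of 0.56 and 0.46 (limma adjusted p = 0.0479 and 0.0480). They kept their calls under 4 and 5 of 17 alternatives. Both move with the epicardial and mesenchymal markers given above, and the part of cell make-up was not tested. The median change of all 915 tested long non-coding rows was 0.05, and 6 of them, Trp53cor1 and Pvt1 included, had a log2 change of at least 1. The largest was 4930429B21Rik (log2 change 1.46), a row that overlaps the p53 target Zmat3.

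The tested rows whose pattern over the 8 libraries was most like each RNA were ranked by Pearson correlation of log2(TPM + 1). The ranking held 12726 of the 15541 tested rows. It left out rows with Gm, Rik, AC, LOC or pseudogene symbols, and with them many long non-coding RNAs. The points share libraries and, for RNAs that differ between groups, the group difference itself, so the correlation is given as a description. For Trp53cor1 the closest were Mme (r = 0.997), Cdkn1a (0.995) and Inka2 (0.994), and within groups these values were 0.726, 0.695 and 0.452. For Pvt1 they were Pik3r3 (0.995), Tmem150a (0.991) and Ano3 (0.989), with 0.915, 0.861 and 0.852 within groups. Trp53cor1 and Pvt1 had r = 0.973 with each other and 0.412 within groups. The closest rows were Tango6, Plppr2 and Arhgef2 for Neat1 (r from 0.951 to 0.961), Pag1, Plxnc1 and Dmac2l for Malat1 (0.950 to 0.980), Coro1a, Wdr78 and Mir7054 for Tug1 (0.928 to 0.942) and Ctso, Zup1 and Metap1d for Kcnq1ot1 (0.952 to 0.965). By limma, 0 of these 12 rows had an adjusted p under 0.05.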

How the data were processed

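RNA sequencing of 4 cKO and 4 control ventricle libraries was analysed from 1 deposited table. Per the file headers its values are TPM, and the authors' columns each sum to 1000000 (lowest 999999), so depth is unknown. The submitters' processing notes name FastQC, Trim Galore 0.6.7, HISAT2 2.2.1, StringTie 2.2.1, featureCounts, DESeq2 and GRCm38; which made the TPM, and whether strand was used, is not given in the sources used here. Of 52778 rows, 49593 matched RefSeq GRCm38.p6 by symbol and chromosome, and 49592 had its coordinates. For all rows of the table, log2(TPM + 1) was computed and tested with limma 3.58.1 (R 4.3.3, mean-variance trend, rows with mean TPM of at least 1). On simulated data with 200 of 15541 rows changed, 95% of changes of 1.5 and 89% of 0.75 were recovered, with 4.66% false calls. The simulated noise was independent between rows and libraries. These rates therefore do not cover differences that many rows of a library share. Single values were tested by exact permutation over 70 assignments (smallest p 0.0286). The series text calls the libraries biological replicates without saying whether embryos were pooled, so p-values measure the spread between libraries. The 18 alternatives were pseudocounts of 0.1 and 5, no filter, a filter at a mean of 5 TPM, no trend, quantile and median-ratio normalization, rescaling of each library without mitochondrial, globin and ribosomal RNA, array weights, a replicate block, and leaving out each of the 8 libraries. Members, lists and the naming rule (the 6 RNAs, fixed partners, nearest and called neighbours within 200 kb, up to 4 called genes of smallest p per list, 3 most alike rows) were chosen with earlier results of these data known. Norad, Gas5, H19, Stk38, Slc22a18 and 4930429B21Rik fall outside the rule and were named after their values were seen. One gene that the naming rule picks is not reported here. Sequences are from GENCODE M21 and RefSeq.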

Additional observations from a re-analysis of the deposited data

Results flagged for a closer look

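Kcnq1ot1 in control replicate 2 stood apart from its group. It was 2.76 TPM, while the other 3 controls lay between 2.28 and 2.32 TPM, so that its gap to the nearest was 0.92 of the group's range, above Dixon's 95% critical value for 4 samples. This was the 1 such value among 54 groups of 4 examined, where chance gives about 1 in 20. Without that library the log2 change of Kcnq1ot1 was 0.21 (limma adjusted p = 0.299).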

How the results depend on the processing

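Depth is unknown from TPM, so precision rests on 4 libraries a group. Trp53cor1 kept its direction and call under all 18 alternatives (log2 change 0.60 to 1.24, limma adjusted p 6.32e-05 to 0.00332), and Pvt1 under all 17 in which it was tested (0.62 to 1.59, adjusted p 0.000749 to 0.0141). With a mean TPM of at least 5, Pvt1 and Kcnq1ot1 were not tested, so 1 of the 6 RNAs was called. Left-out libraries gave 2 to 3. Neat1 ranged from -0.17 to 0.065 without single libraries and turned positive without cKO replicate 4 (0.012) and control replicates 3 (0.037) and 4 (0.065). Malat1 ranged from 0.20 to 0.30.

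Counts of calls moved more. With no filter on low values they were 347 over all rows, 3 of the neighbours within 200 kb, 1 p53-linked non-coding, 2 other long non-coding, 1 paraspeckle, 0 nuclear speckle, 0 higher in the Kcnq1ot1 domain and 1 chromatin gene. Without the variance trend they were 609, 4 neighbours, 1 p53-linked, 1 paraspeckle, 1 speckle, 0 higher in the domain and 0 processing. Quantile normalization gave 1 p53-linked, 3 other long non-coding, 0 paraspeckle, 1 speckle, 2 higher in the domain and 0 processing. Median-ratio scaling gave 1 paraspeckle, 1 speckle, 2 higher in the domain and 0 processing, rescaling the same and 1 p53-linked. A pseudocount of 5 gave 1 p53-linked, and a mean of at least 5 TPM gave 2 genes called higher in the domain and 4 chromatin genes called lower. Leaving out 1 library gave 390 to 938 over all rows, 3 to 6 neighbours, 1 to 2 p53-linked, 2 to 4 other long non-coding, 0 to 3 paraspeckle, 0 to 2 speckle, 0 to 2 domain genes called higher (and 1 lower each time), 1 to 3 chromatin, 0 processing and 0 to 1 Myc network genes (called lower), and 20 to 23 p53 targets. The cause was not tested.

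Of the calls over all rows, 33.8% were higher on TPM as deposited, 50.2% after quantile normalization, 47.8% after median-ratio scaling and 50.8% after rescaling. Replicate numbers are shared between groups but did not pair the libraries (correlations of deviations -0.01, 0.07, 0.06 and -0.09 for numbers 1 to 4; only numbers 2 and 3 correlated best with their own). With the replicate block 420 rows were called, 4 neighbours, 1 p53-linked, 2 other long non-coding, 0 speckle, 0 higher in the domain and 0 processing genes, and Trp53cor1 and Pvt1 stayed called. Settings for rows that are no member were added after seeing the data.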
